A study of Mus musculus with 6 samples.

Results

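Carriers of 5 solute carrier families were examined in mouse kidney: Slc2 (facilitative sugar carriers), Slc5 (sodium-coupled carriers of sugars, inositol and monocarboxylates), Slc13 (sodium-coupled carriers of sulfate and dicarboxylates), Slc16 (monocarboxylate carriers) and Slc17 (carriers of organic anions, phosphate and vesicle contents). Members were defined by gene symbol, and this choice was made with earlier results of these data known. Of the 17680 gene symbols in the deposited files 51 qualified: 12 in Slc2, 12 in Slc5, 5 in Slc13, 14 in Slc16 and 8 in Slc17. RNA came from whole kidneys of wild-type C57BL/6 mice aged 6 to 8 weeks. The LPS group held 3 mice injected intraperitoneally with lipopolysaccharide (LPS), which coats Gram-negative bacteria and sets off septic inflammation, and the Control group 3 mice injected the same way with phosphate-buffered saline. Kidneys were taken 24 h later, with 1 library per mouse, and the series' design text names septic kidney injury as the state compared with normal kidney.

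Most sugar, lactate, sulfate and urate that passes the glomerulus is taken back by the proximal tubule. Carriers of the luminal brush border draw these solutes into the cell, many of them with the sodium gradient, and uniporters or exchangers of the basolateral membrane release them to the blood. The kidney uses lactate, citrate and other organic acids as fuel. It also runs the secretion of organic anions on dicarboxylates that are held inside the cell by sodium-coupled uptake.

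The deposited count totals lay between 29097558 and 33454344 per library. Among markers of nephron segments, 11 of 12 for the proximal tubule and 5 of 6 for the loop of Henle were called lower in LPS kidneys. The collecting duct gave 4 of 6, and podocytes 2 of 5 with a median log2 fold change of -0.11. None of these markers was called higher. Of all genes tested, 24.8% were called lower and 25.7% higher. The summed level of the proximal tubule markers was 22790 to 25900 CPM in Control and 6815 to 7512 CPM in LPS libraries (CPM divides each count by the TMM-scaled library total). In whole-kidney RNA, fewer cells of a type and less RNA per cell cannot be told apart. Of the neutrophil markers, 5 of 8 were tested and all 5 rose, while Ly6g, Mpo and Elane lay at most at 0.0617 CPM on average. The 8 markers summed to 2.83 to 3.42 CPM in Control and 64.8 to 90.5 CPM in LPS libraries. Retnlg and Cxcr2 had at most 5 and 6 counts in a Control library. They passed the filter on low counts through the LPS libraries alone, so the filter favoured their rise. LPS replicate 2 stood apart by seminal vesicle transcripts, which summed to 36810 CPM there and to 32.5 to 46.4 CPM elsewhere. Without that library 45 carriers were tested and the numbers called were the same as with it, 11 higher and 22 lower. The higher carriers were not all the same, since Slc16a13 lost its call and Slc17a2 was newly tested and called.

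Of the 51 carriers, 43 passed the filter on low counts and were tested (edgeR quasi-likelihood test, Benjamini-Hochberg adjusted over all 14219 genes tested, threshold 0.05). Among the 43, 11 rose and 22 fell after LPS, which is 76.7%, where 50.5% of all genes tested were called. Higher calls made up 25.7% and lower calls 24.8% of all genes. The 11 rises among 43 carriers thus lay near the share of all genes, and the 22 falls lay above it. A change of 2-fold or more was seen in 6 higher and 17 lower of the 43 carriers, against 8.24% and 9.62% of all genes. For 34 carriers (79.1%) all libraries of one group lay on one side of the other group's, against 60.2% of all genes. The median log2 fold change was -0.63 over the tested carriers and 0.01 over all genes tested.

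By family, Slc13 had 1 higher and 4 lower of 5 tested carriers (median log2 fold change -1.84), and Slc5 had 2 higher and 6 lower of 9 (median -1.0). Slc16 had 5 higher and 6 lower of 13 (median -0.63). The 11 tested Slc2 carriers gave 2 higher and 4 lower (median 0.06), and the 5 tested Slc17 carriers 1 higher and 2 lower (median 0.03). Each family therefore held carriers that moved in opposite directions.

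**Figure D1:**
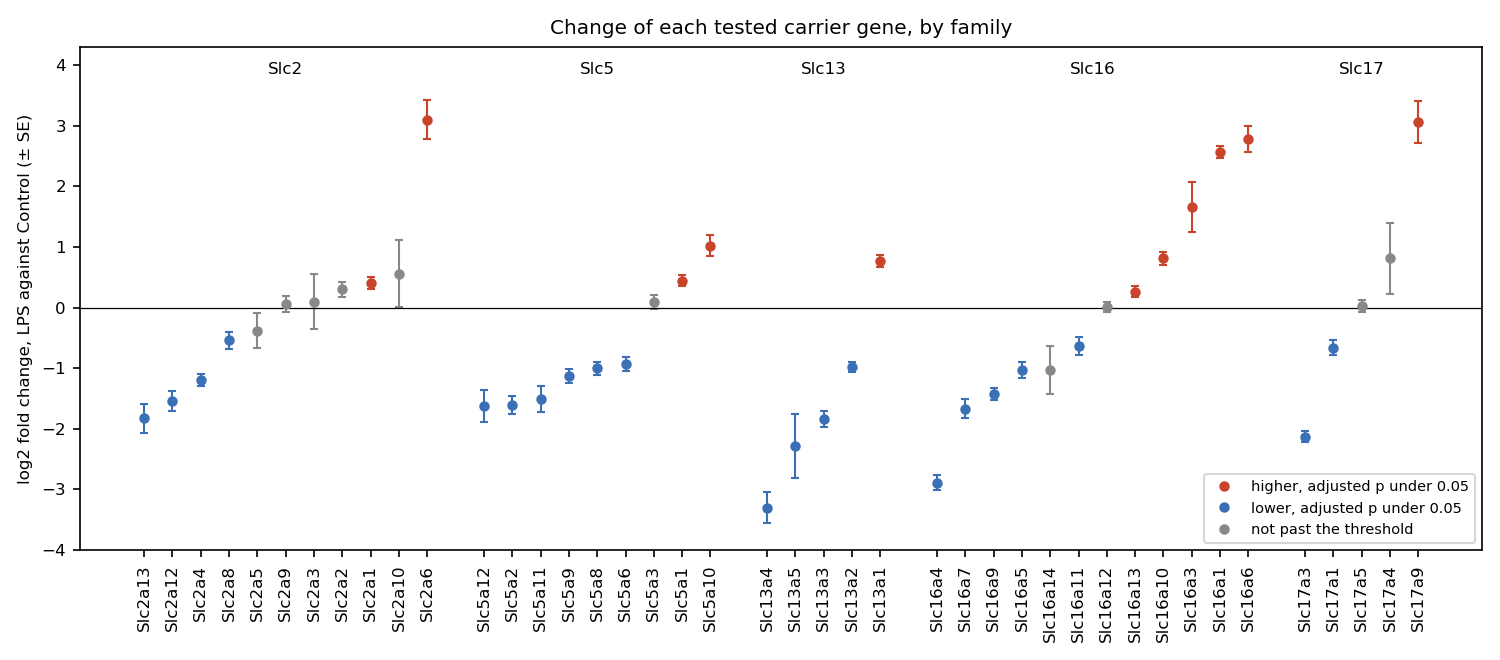
Log2 fold change of 42 of the 43 tested carriers in LPS against Control kidneys (vertical axis), ordered within each family, with bars for the SE of 3 mice per group and colours for the call. Every family holds at least 1 higher carrier (red) and at least 2 lower carriers (blue), from -3.30 for Slc13a4 to 3.10 for Slc2a6.

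The promoter windows of 2 carriers are shown because each took a clearly different share of its family in LPS kidneys and holds a searched motif: Slc16a1, which rose, and Slc13a3, which fell. They were chosen after their values were seen. Each window runs from 250 bases before to 50 bases after the RefSeq start in assembly GRCm38.p6, 5′ to 3′ on the gene's strand. The windows lie at chr3:104638414-104638713 on the plus strand (Slc16a1) and chr2:165473148-165473447 on the minus strand (Slc13a3). Capitals mark matches to the E-box CACGTG, which reads the same on both strands.
Slc16a1: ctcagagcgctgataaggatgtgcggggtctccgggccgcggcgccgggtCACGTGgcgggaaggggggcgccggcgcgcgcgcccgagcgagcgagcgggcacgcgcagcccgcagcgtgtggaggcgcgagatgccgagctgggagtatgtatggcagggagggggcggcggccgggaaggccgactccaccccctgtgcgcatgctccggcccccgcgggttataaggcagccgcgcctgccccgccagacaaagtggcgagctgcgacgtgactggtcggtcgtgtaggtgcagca
Slc13a3: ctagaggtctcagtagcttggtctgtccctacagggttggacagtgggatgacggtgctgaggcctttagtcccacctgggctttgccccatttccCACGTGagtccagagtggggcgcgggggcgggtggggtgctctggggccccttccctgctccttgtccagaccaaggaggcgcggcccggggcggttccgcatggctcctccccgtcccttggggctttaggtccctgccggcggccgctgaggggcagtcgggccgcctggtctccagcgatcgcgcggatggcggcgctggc
The E-box starts at position -200 from the start of Slc16a1 and at -154 from that of Slc13a3. Windows were found for 38 of the 51 carriers. An E-box was present in 5 of these 38 (13.2%): Slc5a1, Slc13a3, Slc16a1, Slc16a12 and Slc17a2. At least 1 window held an E-box in 8.09% of all genes with a window and in 11.3% of the genes tested with a window. The 38 carriers include untested ones such as Slc17a2. The 10-letter NF-kB motif searched was in no carrier's window and in a window of 0.466% of all genes with a window. A match of letters is a description of these windows.

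Glucose carriers of the luminal membrane moved in opposite directions, and the main one fell. Slc5a2, the high-capacity sodium-glucose cotransporter SGLT2 of the early proximal tubule, stood at 275, 422 and 354 CPM in the Control libraries and at 126, 113 and 106 CPM in the LPS libraries. All 3 LPS libraries lay below all Control libraries, with a log2 fold change of -1.61 ± 0.15 (SE), adjusted p = 3.2e-05. Slc5a1, the high-affinity cotransporter SGLT1 of the late proximal tubule, stood at 102, 92.2 and 102 CPM in the Control libraries and at 147, 127 and 127 CPM in the LPS libraries. It was higher in each LPS library than in any Control library, with a log2 fold change of 0.44 ± 0.09 (SE), adjusted p = 0.00345. Slc5a9, the mannose-preferring SGLT4, stood at 30.1, 37.4 and 35.4 CPM in the Control libraries and at 15.6, 14.5 and 16.8 CPM in the LPS libraries. Its groups did not overlap, with a log2 fold change of -1.13 ± 0.11 (SE), adjusted p = 3.72e-05.

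Slc5a10, the mannose and fructose cotransporter SGLT5 of the brush border, stood at 170.4, 194 and 176 CPM in the Control libraries and at 481, 329 and 288 CPM in the LPS libraries. It rose, with a log2 fold change of 1.02 ± 0.17 (SE), adjusted p = 0.00104, and LPS replicate 1 lay well above the other LPS libraries. In FPKM, which divides by gene length and allows genes to be compared, Slc5a2 led the family in Control kidneys with 154 ± 29.8 FPKM (SD, n = 3 per group) and Slc5a10 had 72.2 ± 3.95 FPKM. In LPS kidneys the order was turned, with 146 ± 42.3 FPKM for Slc5a10 and 50.6 ± 5.01 FPKM for Slc5a2. Slc5a10 made up 16.2% ± 1.29 of the family's summed FPKM in Control and 43.7% ± 3.78 in LPS libraries. The summed FPKM of all sodium-sugar cotransporters overlapped between the groups, at 228, 292 and 258 in Control and 291, 215 and 195 in LPS libraries. Slc5a4a and Slc5a4b, the glucose-sensing SGLT3 genes, had 2 and 6 counts over the Control libraries and 0 and 2 over the LPS libraries and were not tested.

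**Figure D2:**
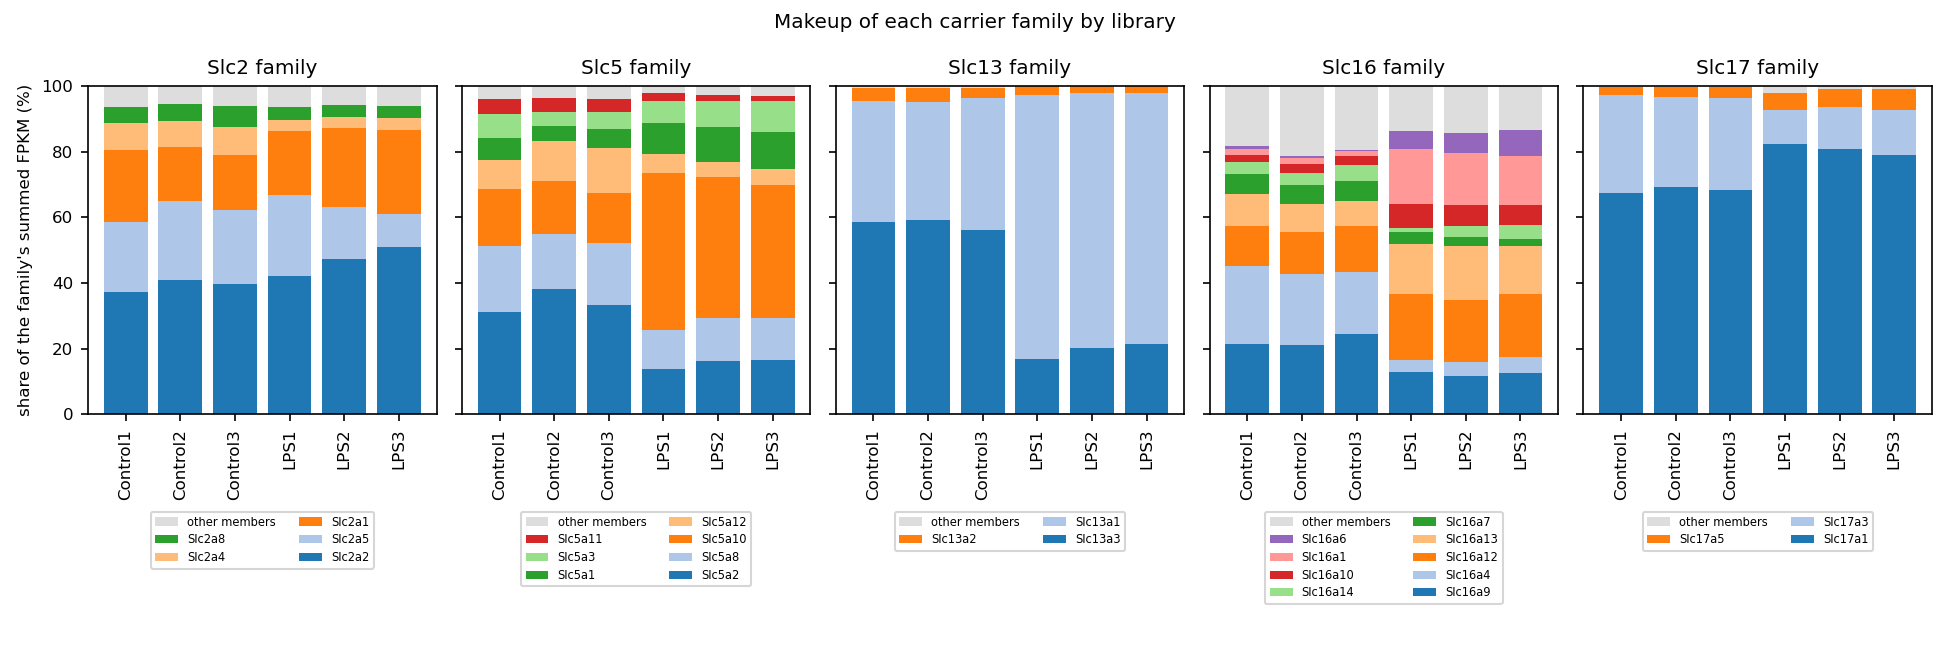
Share of each family's summed FPKM taken by its members (vertical axis, percent) in each of the 6 libraries, with members that never reach 4%, and 1 other Slc16 member, pooled in grey. Slc5a2 gives way to Slc5a10 in the Slc5 family and Slc13a3 to Slc13a1 in the Slc13 family in all 3 LPS libraries.

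Of the glucose uniporters of the basolateral membrane, 1 rose and 1 did not pass the test. Slc2a2, the GLUT2 of the early proximal tubule, liver and beta cell, stood at 130.3, 186 and 159 CPM in the Control libraries and at 178, 201 and 207 CPM in the LPS libraries. The groups overlapped through Control replicate 2, and the gene did not pass the test, with a log2 fold change of 0.30 ± 0.13 (SE), adjusted p = 0.0792. Without Control replicate 2 it passed, with a log2 fold change of 0.43 and an adjusted p of 0.0253, and DESeq2 also called it (adjusted p = 0.0492), and the alternatives ranged from 0.0253 to 0.224. Slc2a1, the widely expressed GLUT1, stood at 79.5, 76.2 and 69.5 CPM in the Control libraries and at 86, 105 and 108 CPM in the LPS libraries. It was modestly higher in all LPS libraries, with a log2 fold change of 0.41 ± 0.10 (SE), adjusted p = 0.00899.

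Among the remaining sugar uniporters 3 fell and 1 rose. Slc2a4, the insulin-responsive GLUT4, stood at 34.4, 44.4 and 41.1 CPM in the Control libraries and at 17.1, 17.5 and 17.7 CPM in the LPS libraries. Its LPS libraries lay close together and below all Control libraries, with a log2 fold change of -1.20 ± 0.10 (SE), adjusted p = 2.13e-05. Adipocyte markers, which belong to a cell type rich in GLUT4, summed to 74.8, 221 and 310 CPM in Control and 127, 111 and 52.3 CPM in LPS libraries, with 1 of 5 lower and 0 higher, and their part in this result was not tested. Slc2a12, the GLUT12, stood at 14, 16.2 and 14.4 CPM in the Control libraries and at 4.51, 6.20 and 4.66 CPM in the LPS libraries, and fell with a log2 fold change of -1.54 ± 0.16 (SE), adjusted p = 6.16e-05. Slc2a8, an intracellular sugar carrier, stood at 14.5, 18.6 and 20.8 CPM in the Control libraries and at 13.3, 12 and 11.7 CPM in the LPS libraries. The gap between its groups was narrow, from 13.3 to 14.5 CPM, and it was lower in LPS kidneys, with a log2 fold change of -0.54 ± 0.14 (SE), adjusted p = 0.0119.

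Slc2a6, the intracellular GLUT6 known from leukocyte-rich tissue, had the largest rise among the carriers tested. It stood at 1.10, 0.814 and 0.427 CPM in the Control libraries and at 6.17, 6.62 and 7.45 CPM in the LPS libraries. Its level was low in both groups, 0.368 ± 0.166 FPKM in Control and 3.14 ± 0.267 FPKM in LPS libraries, and every LPS library lay above every Control library, with a log2 fold change of 3.10 ± 0.32 (SE), adjusted p = 5.58e-05. Neutrophil markers rose in the same libraries, as given above, and macrophage markers gave 4 higher and 1 lower of 8, with sums of 122 to 197 CPM in Control and 193 to 220 CPM in LPS libraries. Their part in the change of Slc2a6 was not tested. Slc2a3, the neuronal GLUT3 also found in leukocytes, stood at 1.54, 0.781 and 0.920 CPM in the Control libraries and at 1.54, 1.38 and 0.550 CPM in the LPS libraries, and did not pass (a log2 fold change of 0.10 ± 0.45 (SE), adjusted p = 0.865). Its direction turned without Control replicate 2 (-0.08), LPS replicate 1 (-0.15) or LPS replicate 2 (-0.04). Slc2a10 stood at 0.559 to 0.936 CPM in Control and at 0.798, 1.99 and 0.421 CPM in LPS libraries, did not pass (adjusted p = 0.422), and had a log2 fold change of 0.56, or -0.24 without LPS replicate 2.

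Carriers of fructose and urate in this family did not pass the test. Slc2a5, the fructose carrier GLUT5, stood at 78.6, 114 and 93.8 CPM in the Control libraries and at 108, 70.4 and 41.5 CPM in the LPS libraries. The LPS libraries spread from above the Control mean to below every Control library, with a log2 fold change of -0.38 ± 0.29 (SE), adjusted p = 0.309. Leaving out LPS replicate 1 gave -0.77 on the log2 scale (adjusted p = 0.0215), and over all alternatives the adjusted p lay between 0.0215 and 0.740. Slc2a9, the urate carrier GLUT9, stood at 18.9, 24.2 and 22.8 CPM in the Control libraries and at 26.2, 20.7 and 21.6 CPM in the LPS libraries. Its groups overlapped throughout, with a log2 fold change of 0.06 ± 0.13 (SE), adjusted p = 0.733, and its direction turned without Control replicate 1 (-0.04) or LPS replicate 1 (-0.05). Slc2a7 had 5 Control counts and 0 LPS counts and was not tested.

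Of the inositol carriers 2 fell and 1 did not pass. Slc5a11, the luminal sodium-inositol cotransporter SMIT2, stood at 53.9, 61.4 and 57.8 CPM in the Control libraries and at 28.6, 16.8 and 15.2 CPM in the LPS libraries. It fell, with a log2 fold change of -1.51 ± 0.21 (SE), adjusted p = 0.000328, and LPS replicate 1 lay above the other LPS libraries. Slc2a13, the proton-inositol symporter HMIT, stood at 9.66, 9.76 and 12 CPM in the Control libraries and at 4.05, 2.19 and 2.59 CPM in the LPS libraries, and fell with a log2 fold change of -1.83 ± 0.24 (SE), adjusted p = 0.00025. Slc5a3, the SMIT1 that takes up inositol as an osmolyte in the medulla, stood at 303, 228 and 264 CPM in the Control libraries and at 295, 266 and 288 CPM in the LPS libraries, and its overlapping groups did not pass (a log2 fold change of 0.09 ± 0.11 (SE), adjusted p = 0.493). Miox, the enzyme that breaks inositol down in the proximal tubule, fell by 4.36 on the log2 scale. The inositol-producing enzymes Isyna1 and Impa1 rose by 0.48 and 0.32, while Impa2 did not pass (0.23, adjusted p = 0.237).

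The 3 sodium-coupled monocarboxylate and vitamin carriers that were tested fell. Slc5a8, the lactate and ketone carrier SMCT1, stood at 410.4, 443 and 472 CPM in the Control libraries and at 254, 211 and 196 CPM in the LPS libraries. All LPS libraries lay below all Control libraries, with a log2 fold change of -1.0 ± 0.11 (SE), adjusted p = 7.97e-05. Slc5a12, the low-affinity lactate carrier SMCT2 of the early proximal tubule, stood at 115, 202 and 219 CPM in the Control libraries and at 77.4, 49.1 and 47.4 CPM in the LPS libraries. Control replicate 1 was the lowest Control library and still lay above every LPS library, with a log2 fold change of -1.62 ± 0.26 (SE), adjusted p = 0.000811. Slc5a6, the carrier of biotin and pantothenate, stood at 32.8, 37.2 and 40.4 CPM in the Control libraries and at 21.4, 18.7 and 17.9 CPM in the LPS libraries, and fell with a log2 fold change of -0.93 ± 0.11 (SE), adjusted p = 0.000122. Slc5a5, the iodide symporter of the thyroid, had 12 Control and 15 LPS counts and was not tested.

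Proton-coupled lactate carriers changed in opposite directions. Slc16a1, the MCT1 that moves lactate, pyruvate and ketone bodies, stood at 28, 25.6 and 22.2 CPM in the Control libraries and at 160.4, 142 and 146 CPM in the LPS libraries. All LPS libraries lay far above all Control libraries, with a log2 fold change of 2.57 ± 0.10 (SE), adjusted p = 2.76e-07. Its share of the summed Slc16 FPKM was 1.80% ± 0.222 in Control and 15.8% ± 0.802 in LPS libraries, and by FPKM it moved from place 31 to place 11 among the 51 carriers. Slc16a7, the high-affinity MCT2, stood at 244, 221 and 242 CPM in the Control libraries and at 94.2, 68.7 and 58.5 CPM in the LPS libraries. It fell without overlap, with a log2 fold change of -1.67 ± 0.16 (SE), adjusted p = 3.81e-05. Slc16a3, the MCT4 of glycolytic cells, stood at 2.41, 0.976 and 0.888 CPM in the Control libraries and at 4.58, 5.71 and 3.24 CPM in the LPS libraries. It rose from a low level, with a log2 fold change of 1.66 ± 0.41 (SE), adjusted p = 0.00799, and without Control replicate 1, its highest Control library, the log2 fold change was 2.27. Control replicate 1 also held the most T and B cell transcripts, with markers summing to 12.5 CPM against 4.85 and 4.18 CPM in Control replicates 2 and 3. Macrophage markers summed to 197 CPM there against 133 and 122 CPM. Endothelium, red cell, podocyte and collecting duct markers were also highest there among Control libraries. Proximal tubule, adipocyte and seminal vesicle markers were lowest there, and neutrophil and loop of Henle markers lay between. The part of these markers in the spread of Slc16a3 was not tested. Slc16a8, the MCT3 of retinal pigment epithelium, had 13 Control and 4 LPS counts and was not tested.

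Neither MCT chaperone rose. Bsg, which encodes the chaperone basigin, fell from 554 to 400 CPM on average (log2 fold change -0.47, adjusted p = 0.000797), and Emb, which encodes embigin, did not pass (0.06, adjusted p = 0.683). Ldha, the lactate dehydrogenase subunit of glycolytic tissue, did not pass either (0.20, adjusted p = 0.0566), and Ldhb fell by 0.36 on the log2 scale. Oxct1 and Bdh1, enzymes of ketone use, had log2 fold changes of -1.71 and -2.07.

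Slc16 carriers of amino acids, carnitine and creatine went different ways. Slc16a10, the aromatic amino acid carrier TAT1, stood at 47.4, 55.6 and 56.8 CPM in the Control libraries and at 106, 85.3 and 87.7 CPM in the LPS libraries. It rose, with a log2 fold change of 0.81 ± 0.11 (SE), adjusted p = 0.00029. Slc16a9, a carrier of carnitine and creatine, stood at 206, 198 and 236 CPM in the Control libraries and at 83, 71.2 and 83.6 CPM in the LPS libraries. It fell without overlap, with a log2 fold change of -1.43 ± 0.10 (SE), adjusted p = 7.13e-06. Slc16a12, a creatine carrier, stood at 172, 176 and 198 CPM in the Control libraries and at 193, 172 and 186 CPM in the LPS libraries. Its groups overlapped throughout, with a log2 fold change of 0.01 ± 0.09 (SE), adjusted p = 0.937. The creatine-forming enzymes Gatm and Gamt had log2 fold changes of -3.60 and -3.03 in the same libraries, and the creatine kinase Ckb fell by 1.73.

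The other Slc16 carriers have less well known substrates. Slc16a4, the orphan MCT5, stood at 193, 172 and 158 CPM in the Control libraries and at 21.5, 22.3 and 26.7 CPM in the LPS libraries. It had the largest fall in the family, with a log2 fold change of -2.89 ± 0.12 (SE), adjusted p = 2.72e-07, and its share of the family's summed FPKM was 21.5% ± 2.30 in Control and 4.31% ± 0.447 in LPS libraries. Slc16a6, the MCT7 linked to ketone body export from liver, stood at 12.9, 8.33 and 7.82 CPM in the Control libraries and at 56.9, 61 and 82.5 CPM in the LPS libraries. Every LPS library lay far above the Control libraries, with a log2 fold change of 2.78 ± 0.21 (SE), adjusted p = 8.75e-06. Slc16a5, the MCT6, stood at 36.8, 39.2 and 31.1 CPM in the Control libraries and at 21.3, 15.9 and 15.1 CPM in the LPS libraries, and fell with a log2 fold change of -1.03 ± 0.14 (SE), adjusted p = 0.000374.

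Slc16a11 and Slc16a13 are adjacent genes in the RefSeq table and moved in opposite directions. Slc16a11, a pyruvate carrier linked to diabetes risk, stood at 14.9, 19.2 and 17.2 CPM in the Control libraries and at 9.28, 10.7 and 13.1 CPM in the LPS libraries, and fell with a log2 fold change of -0.63 ± 0.15 (SE), adjusted p = 0.00795. Slc16a13, a lactate carrier, stood at 78.3, 67.7 and 63.5 CPM in the Control libraries and at 84.6, 85.2 and 81.4 CPM in the LPS libraries. It was the smallest rise called, with a log2 fold change of 0.26 ± 0.09 (SE), adjusted p = 0.035, and lost its call in 8 of 17 alternatives. These included leaving out Control replicate 2 (adjusted p = 0.117), Control replicate 3 (0.127), LPS replicate 1 (0.0599) or LPS replicate 2 (0.0916), and the alternatives ranged from 0.00931 to 0.127. Slc16a14, an orphan carrier, stood at 64, 64.2 and 89.6 CPM in the Control libraries and at 13.2, 40.5 and 52.7 CPM in the LPS libraries. All LPS libraries lay below all Control libraries, but LPS replicate 1 lay far below the other LPS libraries and the gene did not pass, with a log2 fold change of -1.03 ± 0.39 (SE), adjusted p = 0.0539. It passed when LPS replicate 1 was left out (-0.64, adjusted p = 0.0155) and when LPS replicate 3 was (-1.43, adjusted p = 0.0215), and the alternatives together spanned 0.00517 to 0.151.

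**Figure D3:**
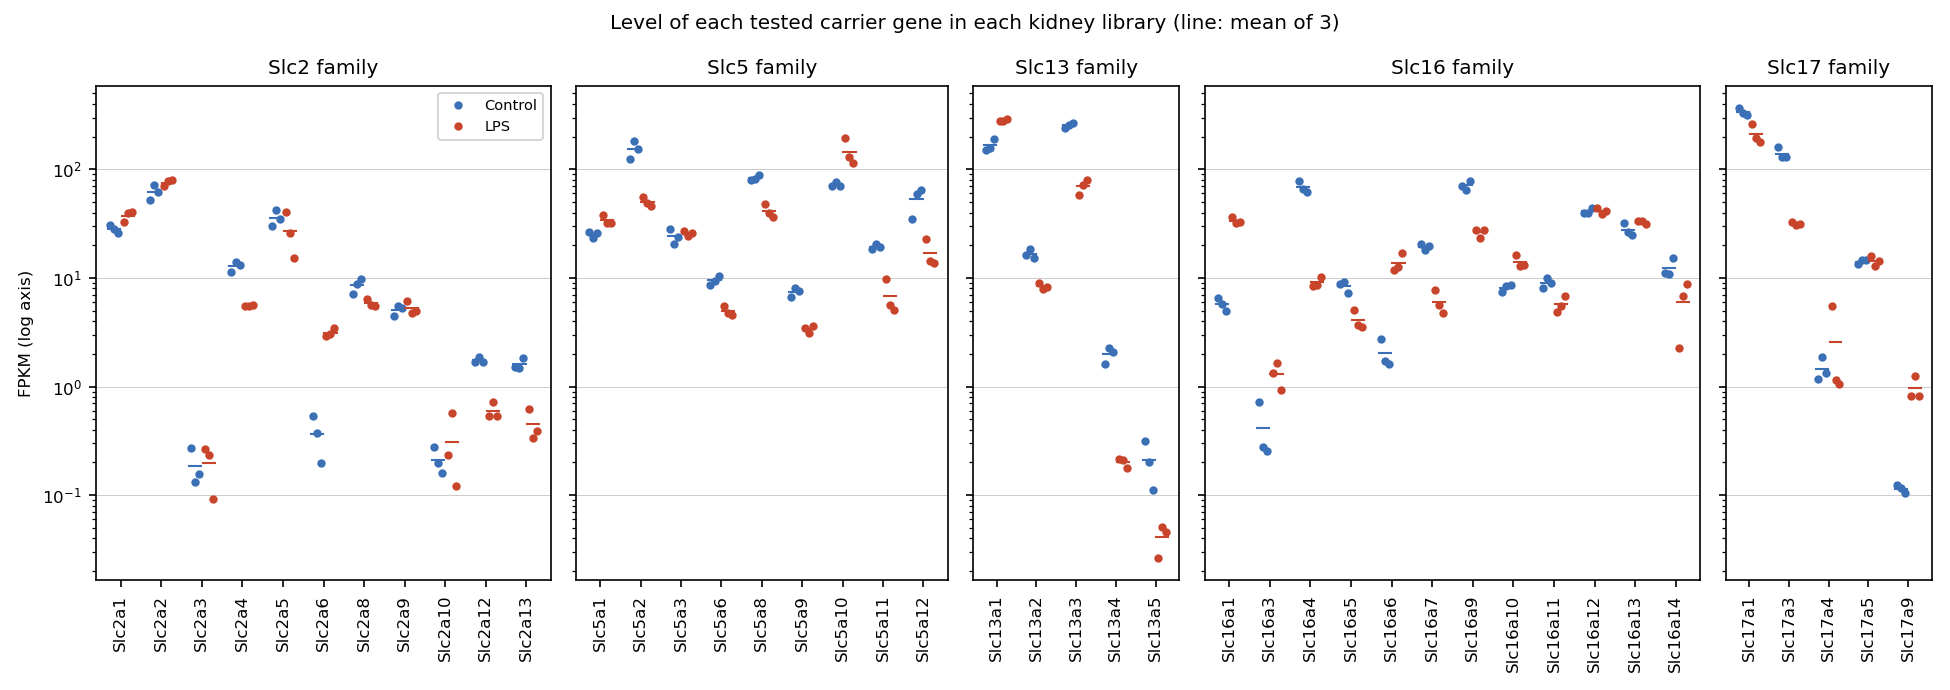
FPKM of 42 of the 43 tested carriers in each library on a log axis, by family, with Control in blue, LPS in red, points for single libraries (replicates 1 to 3 from left to right) and lines for means. Slc17a1, Slc13a3 and Slc13a1 have the highest Control means, at 336, 254 and 166 FPKM, and Slc13a1 has the highest LPS mean, at 283 FPKM.

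Sulfate and dicarboxylate carriers of the Slc13 family gave 4 falls and 1 rise. Slc13a1, the luminal sulfate carrier NaS1, stood at 382, 409 and 495 CPM in the Control libraries and at 711, 727 and 759.6 CPM in the LPS libraries. It was higher in every LPS library, with a log2 fold change of 0.77 ± 0.10 (SE), adjusted p = 0.000292. With 283 ± 6.58 FPKM it was the highest of all 51 carriers in LPS kidneys, and it made up 78.2% ± 2.12 of the family's summed FPKM there and 37.8% ± 2.13 in Control kidneys. Slc13a4, the sulfate carrier NaS2, stood at 5.38, 7.91 and 7.23 CPM in the Control libraries and at 0.737, 0.722 and 0.615 CPM in the LPS libraries. It had the largest fall of the carriers, with a log2 fold change of -3.30 ± 0.25 (SE), adjusted p = 9.69e-06. Papss1 and Papss2, which make the activated sulfate used in conjugation, had log2 fold changes of -0.68 and -1.80, and Suox, which forms sulfate from sulfite, fell by 1.09.

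Slc13a3, the basolateral dicarboxylate carrier NaDC3, stood at 750.4, 836 and 864 CPM in the Control libraries and at 184, 235 and 264 CPM in the LPS libraries. The highest LPS library, at 264 CPM, lay far below the lowest Control library, at 750.4 CPM, with a log2 fold change of -1.84 ± 0.13 (SE), adjusted p = 6.83e-06, and its share of the family's summed FPKM went from 57.9% ± 1.56 to 19.4% ± 2.36. Slc13a2, the luminal citrate and succinate carrier NaDC1, stood at 61.6, 72 and 59.7 CPM in the Control libraries and at 34.6, 30.5 and 32.6 CPM in the LPS libraries. It fell without overlap, with a log2 fold change of -0.98 ± 0.09 (SE), adjusted p = 3.26e-05. Slc13a5, the citrate carrier NaCT of liver and brain, stood at 1.07, 0.716 and 0.395 CPM in the Control libraries and at 0.0921, 0.180 and 0.162 CPM in the LPS libraries. With 66 Control and 14 LPS counts in all it was lower, with a log2 fold change of -2.29 ± 0.53 (SE), adjusted p = 0.00581. Slc13a5 had 32, 22 and 12 counts in the Control libraries and 3, 6 and 5 in the LPS libraries. It passed the filter on low counts through the Control libraries alone, so the filter favoured its fall. Acly, which splits citrate in the cytosol, rose by 0.83 on the log2 scale.

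Of the 4 organic anion and phosphate carriers of the Slc17 family 3 were tested, and 2 of these fell: the urate and organic anion carriers Slc17a1 and Slc17a3 of the brush border. Slc17a1, the NPT1, stood at 792, 744 and 707 CPM in the Control libraries and at 575, 438 and 407 CPM in the LPS libraries. It was the highest of the 51 carriers in Control kidneys, at 336 ± 25.6 FPKM, and fell to 211 ± 42.5 FPKM, with a log2 fold change of -0.66 ± 0.13 (SE), adjusted p = 0.00235. Slc17a3, the NPT4, stood at 929.9, 784 and 780.5 CPM in the Control libraries and at 193, 186 and 191 CPM in the LPS libraries. The LPS libraries lay close together and far below the Control libraries, with a log2 fold change of -2.13 ± 0.09 (SE), adjusted p = 3.79e-07. Xdh, the xanthine dehydrogenase that forms urate, rose from 26.7 to 188 CPM on average (log2 fold change 2.82, adjusted p = 8.95e-07).

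Slc17a4, a related carrier, stood at 2.84, 4.72 and 3.32 CPM in the Control libraries and at 13.5, 2.89 and 2.65 CPM in the LPS libraries. LPS replicate 1 alone lay above the Control range, the gene did not pass, with a log2 fold change of 0.81 ± 0.58 (SE), adjusted p = 0.279, and it stood at -0.39 on the log2 scale when that library was left out. Slc17a2 lay below the filter with 12 Control and 62 LPS counts. The alternatives that tested it gave a log2 fold change from 0.14 on the log2(FPKM + 1) scale to 3.22 without Control replicate 1, and 6 of them called it, DESeq2 among them (adjusted p = 0.0205). These genes lie side by side in the RefSeq table in the order Slc17a2, Slc17a3, Slc17a1 and Slc17a4, so neighbours fell strongly (Slc17a3), fell less (Slc17a1) or did not pass (Slc17a4).

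Lysosomal and vesicular carriers held 1 call. Slc17a5, the sialic acid carrier sialin of lysosomes, stood at 79.3, 89.7 and 90.7 CPM in the Control libraries and at 97.3, 78.9 and 89.4 CPM in the LPS libraries. Its groups overlapped, with a log2 fold change of 0.03 ± 0.10 (SE), adjusted p = 0.803. Slc17a9, the vesicular nucleotide carrier that loads ATP into vesicles, stood at 0.301, 0.293 and 0.263 CPM in the Control libraries and at 2.03, 3.13 and 2.07 CPM in the LPS libraries. Every LPS library lay above every Control library, with a log2 fold change of 3.06 ± 0.35 (SE), adjusted p = 0.00011. The mean went from 0.115 ± 0.00964 to 0.960 ± 0.246 FPKM. Slc17a9 had 9, 9 and 8 counts in the Control libraries and 66, 104 and 64 in the LPS libraries. It passed the filter on low counts through the LPS libraries alone, so the filter favoured its rise. The part of the neutrophil and macrophage markers given beside Slc2a6 was not tested for this gene either. The vesicular glutamate carriers Slc17a7 and Slc17a8 had 0 and 29 Control counts and 2 and 16 LPS counts and were not tested.

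Whether 2 carriers of the same kind of solute changed unequally was asked with the ratio of their FPKM within each library, for 7 pairs (exact permutation test, two-sided). With 3 libraries per group its smallest possible p is 0.1, so no pair could reach 0.05. The Slc5a1 to Slc5a2 ratio was 0.215, 0.126 and 0.167 in Control and 0.674, 0.650 and 0.690 in LPS libraries, 4.06-fold higher on average in LPS libraries (log2 difference 2.02, exact p = 0.1, adjusted p = 0.175 over the 7 pairs). The groups did not overlap, and the LPS libraries lay closer together than the Control libraries. The Slc17a3 to Slc17a1 ratio had a log2 difference of -1.45, the Slc5a11 to Slc5a3 ratio of -1.67 and the Slc13a3 to Slc13a2 ratio of -0.88, each without overlap and with the same p-values.

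The other 3 ratios overlapped between groups. For Slc5a8 to Slc5a12 the log2 difference was 0.60 (exact p = 0.2), for Slc16a3 to Slc16a1 it was -0.79 (exact p = 0.3), and for Slc2a1 to Slc2a2 it was 0.09 (exact p = 0.6). Control replicate 1 was the highest Control library in all 3 of these ratios. The ratio of Slc16a3 to Slc16a1 had a log2 difference of -0.41 without Control replicate 1, and that of Slc2a1 to Slc2a2 turned to -0.02 without Control replicate 2.

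**Figure D4:**
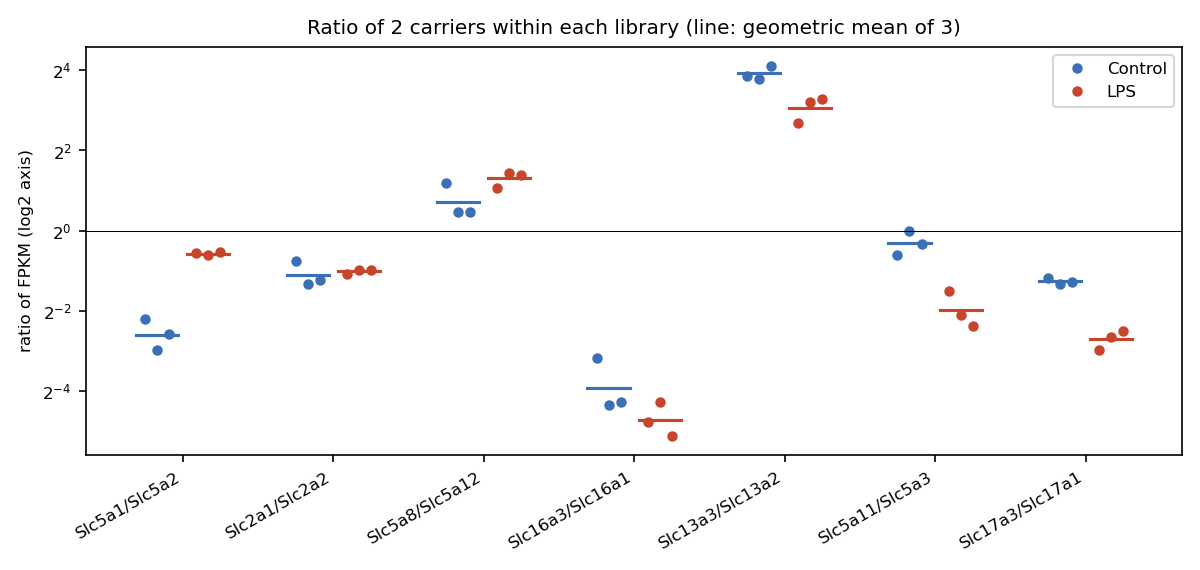
Ratio of the FPKM of 2 carriers within each library for 7 pairs on a log2 axis, with Control in blue, LPS in red and lines for geometric means of 3 libraries. The groups do not overlap for Slc5a1/Slc5a2, Slc13a3/Slc13a2, Slc5a11/Slc5a3 and Slc17a3/Slc17a1.

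Summed over families, FPKM lay lower in all LPS libraries than in all Control libraries for Slc13 (439 ± 32.8 to 362 ± 17.3), Slc16 (319 ± 10.5 to 213 ± 8.56) and Slc17 (491 ± 41.8 to 261 ± 46.9). The sums overlapped for Slc2 (156 ± 17.1 and 162 ± 5.83) and Slc5 (449 ± 45.1 and 330 ± 66.0). These sums are given as descriptions, since the highest members set them. Over all 51 carriers the sum was 1815, 1875 and 1874 FPKM in Control and 1450, 1272 and 1259 FPKM in LPS libraries.

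Scaffolds, regulators and enzymes known to work with these carriers or their substrates were counted from 2 lists. Genes of these lists named with a log2 fold change under 1 in size were chosen after their values were seen. Of 17 partners and regulators 5 rose and 7 fell, where 25.7% of all genes tested were called higher and 24.8% lower. Pdzk1, the brush border scaffold, fell by 1.52 on the log2 scale, and Pdzk1ip1, the SGLT2 subunit MAP17, fell by 0.98. Arrdc4, an arrestin that lowers glucose uptake, rose by 1.46 and its relative Txnip by 0.83, and the tubular transcription factor Hnf4a fell by 0.52. Of 27 enzymes tested of 29 listed, 6 rose and 16 fell, against the same shares of all genes. G6pc, the glucose-6-phosphatase that frees glucose, fell by 2.17, Khk and Sord of fructose metabolism had log2 fold changes of -1.05 and -2.12, and the hexokinase Hk2 rose by 1.88 from 2.48 to 9.13 CPM. Hk1, the hexokinase with most counts, stood at means of 148 and 144 CPM and did not pass (-0.03, adjusted p = 0.759), and neither did Hk3 (0.86, adjusted p = 0.14).

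Of the 51 carriers, 8 overlap a protein-coding gene of the files in the RefSeq table, and no source used here gives the strand setting of the counting, so reads of such pairs may be mixed. How far such reads enter the carriers' values was not tested. Fam83g, which overlaps Slc5a10, had a log2 fold change of -0.19, Rusf1 with Slc5a2 had 0.09 and Rbm15 with Slc16a4 had 0.10. Tbpl1 with Slc2a12 had 0.03, Csnk1d with Slc16a3 had 0.39, Atraid with Slc5a6 had -0.56 and Arsg with Slc16a6 had -0.70. In CPM, 2 partners changed by more than the carrier and in the same direction. Csnk1d had a mean of 115 CPM in Control and 151 CPM in LPS libraries where Slc16a3 had 1.42 and 4.51 CPM. Atraid had 110.0 and 74.9 CPM where Slc5a6 had 36.8 and 19.4 CPM. For Slc5a3, which was not called, the partner Mrps6 had 0.03.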

How the data were processed

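Kidney RNA of 6 mice, 3 per group, was sequenced with 1 library per sample. Raw counts per gene were deposited by the authors, with FPKM for the same 17680 symbols. The FPKM deposited by the authors equal count over length and library total in 106077 of 106080 values (relative tolerance 1e-06). Per the submitters' processing notes, HISAT2, SAMtools, HTSeq, DESeq2 and R 3.2.0 were used. Not given in the sources used here: genome build, annotation and strand setting.

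Counts were fitted with edgeR 4.0.16 in R 4.3.3: filterByExpr (minimum count 10, total 15) left 14219 genes, TMM scaling followed, and the quasi-likelihood test was two-sided with Benjamini-Hochberg adjustment over all of them. The SE is the log2 fold change over the square root of F. CPM use TMM-scaled totals. Simulated data had 14219 genes, with 67 changed 1.5-fold, 67 changed 2-fold and 66 changed 4-fold. Of these changes 38.8%, 74.6% and 93.9% were recovered. Since 50.5% of genes were called in the kidneys, far more than were changed there, these rates do not give the power of this comparison. Library totals were 29097558 to 33454344 counts. These totals alone do not set the precision, which also depends on the number of mice and the variation between them. Each edgeR p-value sets the difference between the groups against the estimated variation between mice of the same group.

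Values in every library are given for tested carriers with a mean of at least 10 CPM in either group, or called with a log2 fold change of at least 1 in size, and for some others singled out after their values were seen. Some results, 1 tested carrier and 1 searched motif among them, are not reported here, though counts include the genes, and further genes of the lists enter by counts alone. Members and lists were chosen with earlier results of these data known. Alternatives were DESeq2 1.42.0, limma 3.58.1 (voom, and log2 FPKM with 2 pseudocounts), other scalings and filters, a replicate block and leaving out each library.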

Additional observations from a re-analysis of the deposited data

How the results depend on the processing

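Of the 33 carriers called, 32 kept direction and call in each of the 17 alternatives that tested them; Slc16a13 did not, and none reversed. Over these alternatives 8 to 13 carriers were higher (8 with limma on log2(FPKM + 1) over genes with a mean FPKM of at least 1, 13 with DESeq2) and 21 to 24 lower. The higher Slc16 carriers numbered 3 instead of 5 under that limma setting, which changes both the unit and the filter, and 4 on log2(FPKM + 1) without its filter. The higher Slc17 carriers numbered 1, but 2 with DESeq2, on log2(FPKM + 0.1), on log2(FPKM + 1) and with no filter on low counts, 0 with limma at a mean FPKM of at least 1, and 1 to 2 when 1 library was left out (2 without Control replicate 1 or LPS replicate 2); the added gene was Slc17a2. Carriers that were not called turned in direction when 1 library was left out, with log2 fold changes of -0.15 to 0.44 for Slc2a3, -0.05 to 0.13 for Slc2a9, -0.24 to 0.94 for Slc2a10, -0.0035 to 0.20 for Slc5a3, -0.03 to 0.07 for Slc16a12 (also -0.00058 with a mean CPM of at least 1), -0.39 to 1.18 for Slc17a4 and -0.04 to 0.11 for Slc17a5. The log2 ratio of Slc2a1 to Slc2a2 spanned -0.02 to 0.27 when 1 library was left out, and that of Slc16a3 to Slc16a1 was -1.66 with a pseudocount of 1 FPKM. The cause of these shifts was not tested.

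With a replicate block 12 carriers were higher and 23 lower, and the additions were Slc2a2 (adjusted p = 0.0287, edgeR) and Slc16a14 (0.00517). Deviations of libraries with the same number correlated at 0.0478, -0.0535 and -0.00201, so the numbers were not taken to pair the mice. Control replicate 2 correlated best with LPS replicate 3. For the 7 ratios the block left every direction as it was.

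For 7 called carriers at low FPKM (Slc2a6, Slc2a12, Slc2a13, Slc13a4, Slc13a5, Slc16a3 and Slc17a9) the log2 fold change was smaller in size on the log2(FPKM + 1) scale than in edgeR. The values differed by more than 1.5 times, since the pseudocount shrinks low values. Of the 8 carriers below the filter, Slc17a2 was called in 6 of the 8 alternatives that tested it, and low counts limit what can be said of the others.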
